A study of Arabidopsis thaliana with 3 samples.

Results

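Aquaporins are the membrane channels through which water and some small uncharged solutes cross plant membranes, and the 35 aquaporin genes of Arabidopsis thaliana are described here in rosette leaves of a transgenic line and of wild type. The genes were taken from the published family by locus code, whatever their values. All 35 had at least 1 spot on the arrays, on 40 spots in all, of 26017 loci with a spot. The transgenic line is labelled AhNF-YC-OE, and NF-YC is a subunit of NF-Y, a factor that binds CCAAT boxes. Both genotypes are of the Col-0 ecotype, were 5 weeks old and were kept at 22 °C in days of 16 h light and 8 h dark. Each of 3 two-colour arrays held AhNF-YC-OE (Cy5) and wild type (Cy3) of 1 condition, namely normal growth, water stress that had lasted 5 days, or recovery, sampled 24 h after watering resumed in plants stressed for 8 days. Not given in the sources used here are the promoter of the transgene, the number of independent lines and the number of plants per extract.

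Water moves down its potential through aquaporin pores, so the number and state of the channels set how easily a membrane lets water through. The plasma membrane intrinsic proteins (PIPs) act at the cell surface, where PIP2 proteins conduct water well and PIP1 proteins reach the membrane mainly in tetramers with PIP2 proteins. Tonoplast intrinsic proteins (TIPs) act at the vacuole. NOD26-like intrinsic proteins (NIPs) carry boric acid, arsenite, glycerol and other small solutes, and small basic intrinsic proteins (SIPs) sit in the endoplasmic reticulum. Drought is known to alter transcripts of many PIPs and TIPs in leaves, and the pores are also gated by phosphorylation and removed by ubiquitin ligases.

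There was 1 array per condition and no exchange of dyes. No difference has a replicate check, no p-value is given, and genotype and dye cannot be told apart in a ratio. In whole leaves, fewer cells of a type and less RNA per cell cannot be told apart either. Median spot intensity over all annotated genes was 3042 in AhNF-YC-OE and 4209 in wild type under normal growth. It was 812 and 1422 under water stress, and 962 and 1399 in recovery, in the same order of genotypes. Intensities are arbitrary scanner units and depend on the probe, so levels of different genes are not set against each other.

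Names are those of the array annotation, and several measurements bear on how well they hold. Among 1526 pairs of spots annotated to the same transcript, the level of 1 spot correlated with that of the other at r = 0.056, 0.064 and 0.079 on the arrays of the 3 conditions. Of 33 aquaporin spots whose deposited RefSeq accession could be looked up, 1 carried the accession of another locus, against 1.24% of 5567 such spots on the whole array. That spot is 1 of a pair named AT4G10380 (NIP5;1). The only spot of AT3G16240 (TIP2;1) had an older locus code of the neighbouring gene, although its accession was the right one. The rosette label was set against marker genes by counting those brighter than 95% of the empty spots in either channel. Under normal growth this held for 6 of 12 leaf markers, 4 of 8 root markers, 4 of 7 pollen markers and 6 of 10 seed markers, and none of these markers was at 0. Under water stress it held for 12, 8, 7 and 7 of the same lists, and in recovery for 11, 7, 7 and 9. The summed intensity of the leaf list ranged between 92840 and 125160 over the 3 arrays in AhNF-YC-OE, and between 101830 and 131380 in wild type. That of the seed list ranged between 69210 and 118890 in AhNF-YC-OE and between 82028 and 116160 in wild type. The marker genes therefore did not set leaf apart from organs that were not sampled. With spots of 1 transcript this unlike, it is uncertain whether a spot measures the gene it is named for. Each value below is that of the spot carrying the gene's name in the annotation.

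All 35 aquaporins lay above local background in both channels of all 3 arrays. Brighter than 95% of the empty spots were 11 of them under normal growth, where some empty spots were themselves bright, 29 under water stress and 30 in recovery. Of all 26017 loci this held for 12461, 22350 and 22793 in the same order. The 6 aquaporins that were not under water stress were AT1G01620, AT3G54820 and AT2G16850 of the PIPs, AT3G26520 of the TIPs and both NIP4 genes.

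The 5 PIP1 genes were PIP1;1 (AT3G61430, PIP1A), PIP1;2 (AT2G45960, PIP1B), PIP1;3 (AT1G01620, PIP1C), PIP1;4 (AT4G00430, PIP1E) and PIP1;5 (AT4G23400, PIP1D). PIP1B is a main PIP1 of the rosette and is known to carry part of its water permeability. The 8 PIP2 genes were PIP2;1 (AT3G53420, PIP2A), PIP2;2 (AT2G37170, PIP2B), PIP2;3 (AT2G37180, RD28), PIP2;4 (AT5G60660, PIP2F), PIP2;5 (AT3G54820, PIP2D), PIP2;6 (AT2G39010, PIP2E), PIP2;7 (AT4G35100, PIP3) and PIP2;8 (AT2G16850, PIP3B). PIP2A acts in guard cells and veins and is phosphorylated by the kinase OST1, and RD28 was named for its response to desiccation. PIP2B and RD28 are adjacent genes of near-identical coding sequence, so a probe may take up transcripts of both.

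The 10 TIP genes were TIP1;1 (AT2G36830, GAMMA-TIP), TIP1;2 (AT3G26520, GAMMA-TIP2), TIP1;3 (AT4G01470, GAMMA-TIP3), TIP2;1 (AT3G16240, DELTA-TIP), TIP2;2 (AT4G17340, DELTA-TIP2), TIP2;3 (AT5G47450, DELTA-TIP3), TIP3;1 (AT1G73190, ALPHA-TIP), TIP3;2 (AT1G17810, BETA-TIP), TIP4;1 (AT2G25810) and TIP5;1 (AT3G47440). GAMMA-TIP is a main tonoplast aquaporin of growing tissues, ALPHA-TIP and BETA-TIP are known from the storage vacuoles of seeds, and GAMMA-TIP3 and TIP5;1 from pollen. The 9 NIP genes were NIP1;1 (AT4G19030, NLM1), NIP1;2 (AT4G18910, NLM2), NIP2;1 (AT2G34390), NIP3;1 (AT1G31885), NIP4;1 (AT5G37810), NIP4;2 (AT5G37820, NLM5), NIP5;1 (AT4G10380), NIP6;1 (AT1G80760, NLM7) and NIP7;1 (AT3G06100). NIP5;1 takes up boric acid in roots, NLM7 moves it between veins in shoot nodes and NIP7;1 acts in anthers. The 3 SIP genes were SIP1;1 (AT3G04090, SIP1A), SIP1;2 (AT5G18290, SIP1B) and SIP2;1 (AT3G56950, SIP2).

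The first comparison asked which aquaporins differed between AhNF-YC-OE and wild type within a condition. Under normal growth 2 of the 35 were at least 2-fold higher in AhNF-YC-OE, the plasma membrane gene PIP1D and the pollen-type tonoplast gene TIP5;1, and none was 2-fold lower. Over all 26009 loci measured on that array, 0.0961% were 2-fold higher (25 loci) and 0.00769% were 2-fold lower (2 loci). Judged by the brightest spot of each gene, no aquaporin was 2-fold apart under water stress, where 0.488% of all loci were higher and 0.338% lower, nor in recovery, where 0.0538% were higher and 0.385% lower. The other 33 aquaporins lay within 1.5-fold of wild type under normal growth, and all 35 did so on the other arrays. The same held for 98.1%, 94.6% and 97.9% of all loci on the 3 arrays.

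PIP1D gave intensities of 31447, 44231 and 42236 in AhNF-YC-OE under normal growth, water stress and recovery, against 14580, 24628 and 30928 in wild type. It was the brighter in AhNF-YC-OE on every array. Its log2 ratio (AhNF-YC-OE over wild type, as throughout) was 1.18, 0.50 and 0.23 in normal growth, water stress and recovery. The gap was widest under normal growth and narrowest in recovery, and the AhNF-YC-OE channel varied less over the arrays than the wild-type channel.

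TIP5;1, known as a urea and water channel of pollen, gave 43628, 39461 and 44649 in AhNF-YC-OE and 19835, 26711 and 37270 in wild type under the same conditions. Its log2 ratio was 1.03, 0.23 and −0.01 in normal growth, water stress and recovery. As with PIP1D, the wild-type intensity was lowest on the normal growth array. Under normal growth the ratios in the authors' deposited table, 0.98 for PIP1D and 0.91 for TIP5;1, were just under 2-fold. Print-tip loess gave 1.04 for PIP1D and 0.93 for TIP5;1, and median centring gave 1.47 and 1.502.

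The brightness and place of these 2 spots on the array were also read. Of 26 gene spots at least 2-fold higher in AhNF-YC-OE under normal growth, 19 had an AhNF-YC-OE intensity above 25000, a limit chosen after the values were seen. The 19 had log2 ratios between 1.03 and 1.18 and spanned block rows 6 to 12 of the 12 on the array. These rows held 3207 of all 4999 spots that bright. The range of rows was taken from the 19 spots themselves, so that all of them lie in it shows nothing of place. PIP1D and TIP5;1 are among the 19, both in block row 10. None of the 19 was 2-fold higher on the other arrays, where they ranged from −0.09 to 0.73 under water stress and from −0.11 to 0.50 in recovery. Over those 4999 spots the median log2 ratio was 0.05, and the 8 spots around PIP1D ranged from −0.29 to 0.39. The part of brightness and place in the 2 ratios was not tested.

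**Figure D1:**
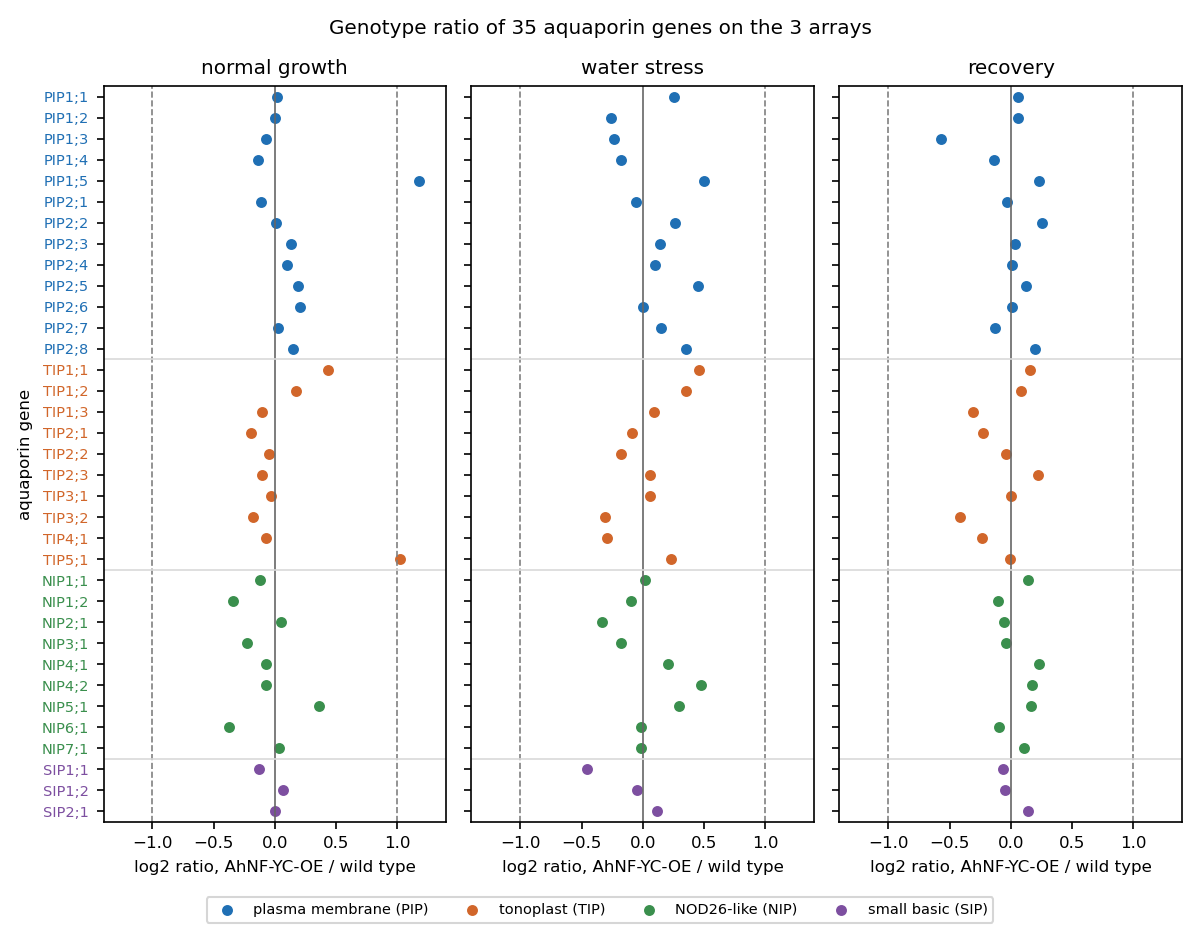
AhNF-YC-OE over wild type as a log2 ratio (horizontal axis) for the 35 aquaporin genes (rows, coloured by subfamily) on the arrays of normal growth, water stress and recovery, 1 point per gene and array, where dashed lines mark 2-fold. PIP1;5 at 1.18 and TIP5;1 at 1.03 are the points beyond 2-fold, both under normal growth. Median centring would put 4 genes beyond 2-fold under water stress and 1 in recovery. It would put 1989 of all 26011 loci 2-fold higher and 3561 lower under water stress, and 169 and 383 of 26006 in recovery.

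Across the family the genotype ratios centred on 0. The median log2 ratio over the 35 genes was −0.00063, 0.057 and 0.0089 in normal growth, water stress and recovery, beside −0.0064, 0.0030 and 0.00 over all loci. By subfamily the median was 0.03, 0.14 and 0.04 for PIPs, −0.06, 0.06 and −0.02 for TIPs, and −0.07, −0.01 and 0.11 for NIPs in the same 3 conditions. There were 11 genes with a ratio above 0 on all 3 arrays and 11 below 0 on all 3. These shares are read beside 23.3% and 24.2% of all loci. Across the 35 genes the ratio of 1 array correlated with that of another at r = 0.55 for normal growth and water stress, 0.36 for normal growth and recovery, and 0.64 for water stress and recovery. Over all loci r was 0.24, 0.29 and 0.67. These points share probes, dyes and the way brightness enters a ratio.

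The lowest ratios were modest. NLM7, a boric acid channel, was lowest under normal growth, with 30121, 12818 and 9078 in AhNF-YC-OE and 34845, 14165 and 11092 in wild type over the 3 conditions. Its log2 ratios were −0.38, −0.02 and −0.10, but median centring turned them to 0.15, 0.65 and 0.25. SIP1A, of the endoplasmic reticulum, was lowest under water stress, with 668, 139 and 186 in AhNF-YC-OE against 1037, 567 and 357 in wild type. Its ratios were −0.13, −0.46 and −0.07, below 0 on every array. Under median centring the water stress ratio was −1.24 for SIP1A, −1.26 for PIP1C, 1.64 for PIP1D and 1.36 for TIP5;1.

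PIP1C was lowest in recovery, with 202, 96 and 90.5 in AhNF-YC-OE and 277, 391 and 270 in wild type. Its log2 ratios were −0.07, −0.23 and −0.57, and in recovery its AhNF-YC-OE channel did not exceed the 95% limit of the empty spots. PIP2B was the highest in recovery, with 1907, 252 and 194 in AhNF-YC-OE against 2665, 537 and 298 in wild type. Its ratio in recovery was 0.25 and turned to −0.11 under median centring. Empty spots, which had weight 0 in the correction of ratios, had a median log2 ratio of 0.25, 1.76 and 0.95 on the 3 arrays. Ratios near background are thus not centred on 0, and small ratios of dim genes such as PIP1C have little weight. The medians of empty spots lie above 0 and the ratios of PIP1C below 0. What part background had in them was not tested.

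**Figure D2:**
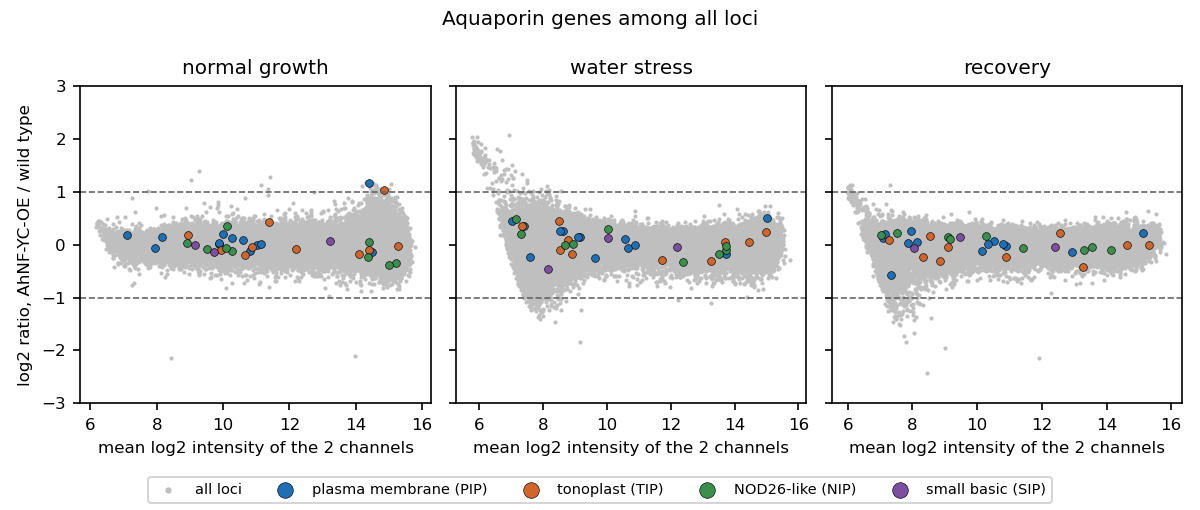
AhNF-YC-OE over wild type as a log2 ratio (vertical axis) against the mean log2 intensity of both channels (horizontal axis) for all loci (grey) and the aquaporins (coloured by subfamily) on each array, where dashed lines mark 2-fold. Aquaporins lie inside the grey cloud on the water stress and recovery arrays, and the pair above the line under normal growth, PIP1;5 and TIP5;1, sits at the bright end among other bright loci.

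The second comparison asked how each gene's intensity changed between conditions within a genotype, on single-channel log2 intensities after Aquantile. Aquantile brings the mean log2 intensity of the 2 channels to a common distribution over the arrays and leaves the ratios as they were. Each condition is 1 array, so water supply and array cannot be told apart. Since the median intensity under water stress was far below that under normal growth, a gene can be higher on this scale and lower in raw intensity. Under water stress over normal growth, 7 aquaporins were 2-fold or more higher and 4 were 2-fold or more lower in AhNF-YC-OE, where 13% of all loci were higher and 13.1% lower. In wild type 7 were higher and 6 lower, where 15.7% of all loci were higher and 15% lower. Higher in both genotypes were 4 PIPs (PIP1D, PIP2A, PIP2F and PIP2E), AT2G25810, AT4G10380 and SIP2, although the authors' values turned PIP2A, AT2G25810 and AT4G10380 to slightly lower. Lower in both were GAMMA-TIP, AT5G37810 and NLM5. These 7 and 3 of 35 stand beside 11.6% and 11.7% of all loci higher and lower in both genotypes. Of these aquaporins only PIP1D was brighter than 95% of the empty spots under normal growth. The 2 genotypes gave like changes over the family (r = 0.97 across 35 genes, and 0.96 across all loci), and within an array they shared the spot.

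Among PIPs, PIP2E, a leaf PIP2, had the highest change. It gave 900, 1496 and 1499 in AhNF-YC-OE under normal growth, water stress and recovery, and 1111, 2367 and 2083 in wild type. Its log2 change under water stress was 2.26 in AhNF-YC-OE and 2.47 in wild type, and its raw intensity was also above that of normal growth in both genotypes, while the array medians were far below. PIP2A was 1.51 and 1.45 higher and PIP2F, a root PIP2, 1.55 and 1.55 higher in AhNF-YC-OE and wild type, although the authors' values put PIP2A at −0.07 and −0.08 and PIP2F at 0.16 and 0.07. PIP1D changed by 1.06 in AhNF-YC-OE and 1.73 in wild type. The gap of the 2 changes is the same quantity as the gap between its 2 genotype ratios and adds nothing to them.

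PIP2B lay at the other end of the PIPs, with a log2 change of −0.97 in AhNF-YC-OE and −1.22 in wild type under water stress. It was lower than under normal growth under each of the 4 scalings compared, Aquantile, median scaling, quantile over all 6 channels and the authors' values. The remaining 8 PIPs moved by less than 2-fold in both genotypes, between −0.17 and 0.72 in AhNF-YC-OE and between −0.37 and 0.60 in wild type, which is within the shift that another scaling makes.

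GAMMA-TIP was the lowest TIP under water stress. It gave 2633, 267 and 294 in AhNF-YC-OE and 2736, 496 and 453 in wild type over the 3 conditions. Its log2 change of −1.32 in AhNF-YC-OE and −1.34 in wild type was below 0 under all 4 scalings. AT2G25810, a TIP of roots, was the highest, with 3888, 2573 and 1478 in AhNF-YC-OE and 5567, 4528 and 2439 in wild type. Its change of 1.07 and 1.29 became −0.44 and −0.31 with the authors' values. GAMMA-TIP2 lay at −0.83 in AhNF-YC-OE and −1.01 in wild type, and the wild-type value turned to 0.57 under median scaling.

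Of the NIPs, the pollen gene AT5G37810 had the lowest change. It gave 873, 90.7 and 143 in AhNF-YC-OE against 1307, 275 and 233 in wild type, which is a log2 change of −1.73 in AhNF-YC-OE and −2.01 in wild type under water stress. Its neighbour NLM5 changed by −1.36 and −1.91. Neither gene exceeded the 95% limit of the empty spots under water stress, so the size of these changes is limited by background. AT2G34390, a lactic acid channel of root cells, changed by −1.09 in AhNF-YC-OE and −0.71 in wild type, and NLM2 by −0.97 and −1.21, although median scaling turned NLM2 to 0.39 and 0.19.

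AT4G10380 (NIP5;1), a boric acid channel of roots, had the highest NIP change, 1.42 in AhNF-YC-OE and 1.48 in wild type, on its brighter spot. That spot gave 1036, 864 and 1092 in AhNF-YC-OE and 1148, 1249 and 1409 in wild type. It is the spot whose accession belongs to another locus, AT2G30870. The other spot, whose accession is that of AT4G10380, changed by 0.07 in AhNF-YC-OE and −0.43 in wild type. The 2-fold call of AT4G10380 therefore rests on a spot that the annotation does not clearly give to it. The authors' values are given per transcript, which both spots share, so their value for AT4G10380 may be of either spot or of both.

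SIP2 gave 474, 815 and 597 in AhNF-YC-OE and 662, 1338 and 839 in wild type over the 3 conditions. Its log2 change under water stress was 2.26 in AhNF-YC-OE and 2.14 in wild type, and its raw intensity too was above that of normal growth. It was at least 2-fold higher in both genotypes under all 4 scalings. SIP1B changed by 0.42 and 0.53, and SIP1A by −0.54 and −0.21.

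By subfamily, the median log2 change under water stress was 0.20 in AhNF-YC-OE and 0.37 in wild type for the 13 PIPs, −0.14 and −0.11 for the 10 TIPs, −0.59 and −0.71 for the 9 NIPs and 0.42 and 0.53 for the 3 SIPs. Over all loci it was 0.05 in AhNF-YC-OE and 0.09 in wild type. Above 0 were 11 PIPs in AhNF-YC-OE and 9 in wild type, 5 TIPs in each genotype and 4 NIPs in each. Of all loci 13716 of 26015 were above 0 in AhNF-YC-OE and 13942 of 26014 in wild type. Quantile over all 6 channels gave the same counts in AhNF-YC-OE and 8 PIPs, 4 TIPs and 3 NIPs in wild type. The authors' values gave 6 PIPs, no TIP and no NIP in AhNF-YC-OE, and 5 PIPs, 1 TIP and 1 NIP in wild type. Median scaling went the other way, with more PIPs, TIPs and NIPs above 0 than Aquantile in both genotypes. It also raised the median of all loci, to 0.78 in AhNF-YC-OE and 0.95 in wild type. Among the genes not yet described, NIP7;1 of anthers changed by 0.90 in AhNF-YC-OE and 0.94 in wild type. NLM7 changed by −0.59 and −0.95, and DELTA-TIP, an ammonium and water channel of shoots, by −0.65 and −0.76. Median scaling turned NLM7 to 0.68 and 0.27, while DELTA-TIP stayed below 0 under all 4 scalings. NLM1 and NIP3;1, both known to carry arsenite, stayed between 0.06 and 0.19 in both genotypes with Aquantile, and lay between −1.13 and −0.51 with the authors' values.

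**Figure D3:**
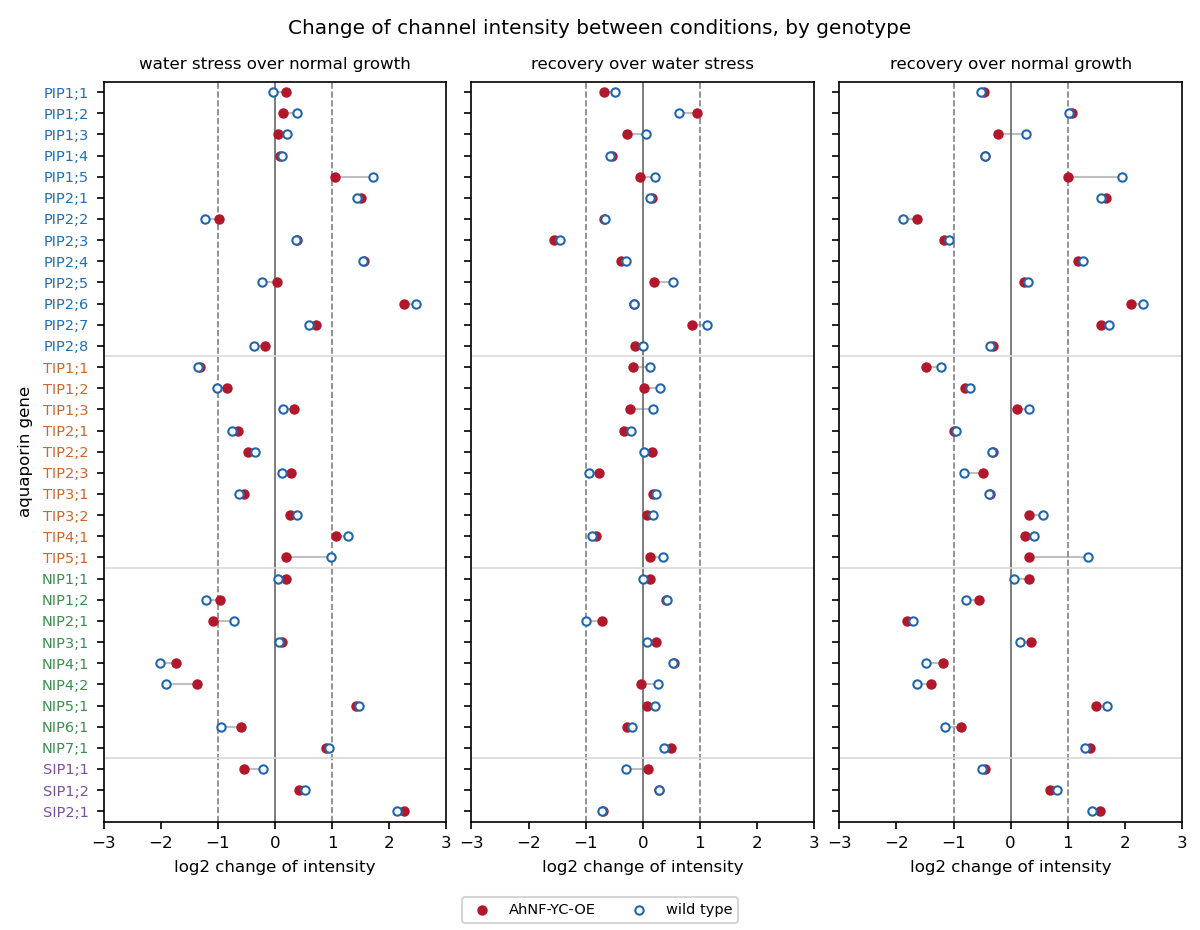
Log2 change of channel intensity (horizontal axis) for the 35 aquaporins (rows) in AhNF-YC-OE (filled) and wild type (open), for water stress over normal growth, recovery over water stress and recovery over normal growth, where dashed lines mark 2-fold. PIP2;6 and SIP2;1 lie furthest to the right and NIP4;1 furthest to the left in the left panel, most genes lie inside the dashed lines in the middle panel, and the sign of PIP2;1, TIP4;1 and NIP5;1 in the left panel turns with the authors' values.

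The scaling decided how many aquaporins counted as higher or lower under water stress. In AhNF-YC-OE the split was 7 higher and 4 lower with Aquantile, 14 and 3 with median scaling, and 2 and 12 with the authors' values. In wild type it was 7 and 6, 13 and 0, and 2 and 14. All loci split likewise. In AhNF-YC-OE 3385 were higher and 3404 lower of 26015 with Aquantile, and 10802 and 2616 with median scaling. With the authors' values it was 2009 and 9456 of 25946. In wild type the loci split was 4089 and 3901 of 26014, 12502 and 2015, and 2192 and 9851 of 25946. The median of all loci moved with the scaling, to 0.78 in AhNF-YC-OE and 0.95 in wild type under median scaling, and to −0.62 and −0.65 with the authors' values. Past 2-fold under all 4 scalings were SIP2 higher and GAMMA-TIP and AT5G37810 lower in AhNF-YC-OE, and PIP2E and SIP2 higher in wild type. Taken relative to each scaling's own median of all loci, PIP2E and SIP2 were 2-fold higher, and PIP2B, GAMMA-TIP and AT5G37810 2-fold lower, in both genotypes under all 4. AT2G34390 joined them as lower in AhNF-YC-OE, and PIP1D as higher and NLM5 as lower in wild type. The share of all loci that meets either rule is not given here, so these genes have no background beside them. Under normal growth PIP2E, SIP2, PIP2B, GAMMA-TIP and AT5G37810 did not exceed the 95% limit of the empty spots.

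**Figure D4:**
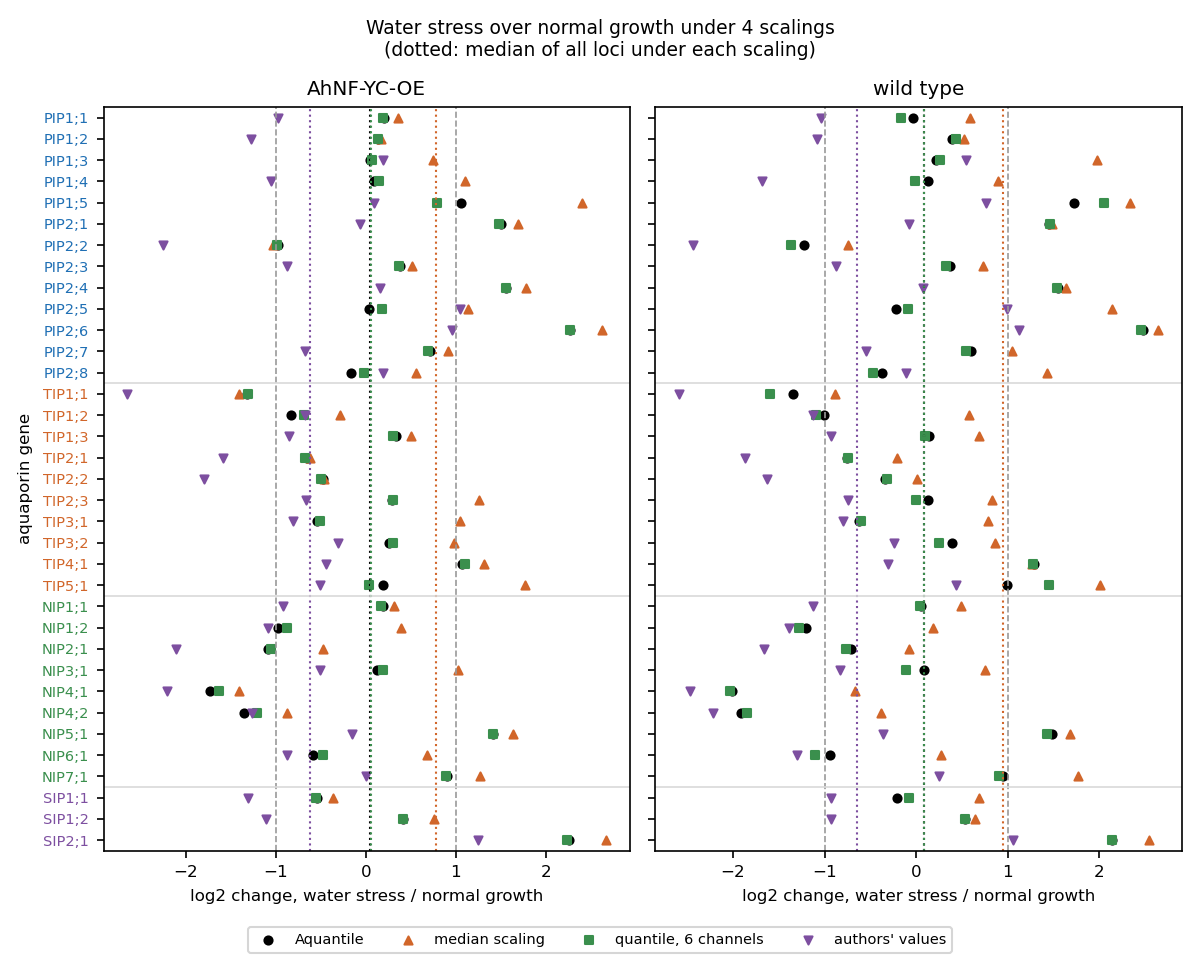
Log2 change of water stress over normal growth (horizontal axis) for the 35 aquaporins (rows) in AhNF-YC-OE and wild type under 4 scalings (symbols), with dotted lines at the median of all loci under each scaling and dashed lines at 2-fold. The median of the family shifts with the scaling in the direction of the dotted lines, but single genes can move against them. With the authors' values PIP2;5 goes from 0.04 (Aquantile) to 1.05 in AhNF-YC-OE and from −0.23 to 0.99 in wild type. Under median scaling TIP1;1 goes from −1.32 to −1.41 in AhNF-YC-OE. SIP2;1 stays right of 1 in both genotypes, and PIP2;2, TIP1;1 and NIP4;1 stay left of 0.

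Few aquaporins were 2-fold apart between recovery and water stress, near the share of all loci. The plants in recovery had been stressed for 8 days, and those of the water stress array for 5. In recovery over water stress 1 gene was 2-fold lower and none 2-fold higher in AhNF-YC-OE, where 3.7% of all loci were lower and 3.14% higher. In wild type 1 was lower and 1 higher, where 4.08% of all loci were lower and 3.98% higher. The gene lower in both was RD28, the PIP2 named for desiccation. It gave 1082, 414 and 169 in AhNF-YC-OE and 1407, 793 and 306 in wild type over normal growth, water stress and recovery. Its log2 change was −1.56 in AhNF-YC-OE and −1.46 in wild type and stayed past 2-fold under all 4 scalings. Its neighbour PIP2B changed the same way by −0.68 and −0.67.

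The gene higher in wild type was PIP3, a leaf PIP2, with 1.13 against 0.86 in AhNF-YC-OE. It gave 783, 396 and 890 in AhNF-YC-OE and 1094, 777 and 1424 in wild type. The highest change in AhNF-YC-OE was that of PIP1B, 0.95, against 0.63 in wild type, on intensities of 1743, 528 and 1242 in AhNF-YC-OE and 2469, 1200 and 1694 in wild type. Both genes were thus brighter in recovery than under water stress in both genotypes, and under all 4 scalings.

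In the other subfamilies the recovery changes stayed under 2-fold with Aquantile. AT2G25810 changed by −0.82 in AhNF-YC-OE and −0.88 in wild type, and DELTA-TIP3, an ammonium and water channel, by −0.77 and −0.94. DELTA-TIP3 gave 20391, 12993 and 5942 in AhNF-YC-OE and 22893, 13673 and 6202 in wild type, lowest in recovery in both. Under median scaling DELTA-TIP3 was past 2-fold in both genotypes, at −1.38 and −1.12, and AT2G25810 in AhNF-YC-OE, at −1.04 against −0.89 in wild type. The authors' values put DELTA-TIP3 at −0.96 in AhNF-YC-OE and −1.15 in wild type, and put GAMMA-TIP2 at −1.07 and −0.56 and NLM5 at −1.0046 and −0.68. The highest TIP was the seed gene ALPHA-TIP in AhNF-YC-OE, at 0.18 (−0.09 under median scaling), and TIP5;1 in wild type, at 0.36. ALPHA-TIP gave 43318, 23712 and 26512 in AhNF-YC-OE and 36265, 20911 and 24826 in wild type, a bright spot in every channel of a leaf sample.

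AT2G34390 was the lowest NIP, at −0.72 in AhNF-YC-OE and −0.999 in wild type. It gave 21348, 4088 and 2336 in AhNF-YC-OE and 21610, 6858 and 3243 in wild type, lower on each array of the 3 in the order of the conditions. Its change was −1.06 in AhNF-YC-OE and −1.06 in wild type under median scaling, and −0.82 and −1.09 with the authors' values. AT5G37810 was the highest, at 0.55 and 0.53, but the authors' values turned it to −0.51 and −0.35, and median scaling put wild type at −0.21. Among SIPs, SIP1B was highest, at 0.28 and 0.28, with 8657, 3910 and 4833 in AhNF-YC-OE and 10445, 5500 and 6176 in wild type. SIP2 was lowest, at −0.70 and −0.72, and so lay between its values of normal growth and water stress.

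Set against normal growth, recovery had 8 aquaporins higher and 6 lower in AhNF-YC-OE, where 14.6% of all loci were higher and 14.4% lower. In wild type it had 10 higher and 7 lower, where 16.9% were higher and 15.9% lower. Higher in both genotypes were PIP1B, PIP2A, PIP2F, PIP2E, PIP3, AT4G10380, AT3G06100 and SIP2, of which the authors' values turned PIP1B, PIP2F and AT4G10380 to lower. The second spot of AT4G10380 lay at −0.48 in AhNF-YC-OE and −0.59 in wild type. Lower in both were PIP2B, RD28, GAMMA-TIP, AT2G34390, AT5G37810 and NLM5, with all 4 scalings below 0. Of all loci 13.5% were 2-fold higher and 13.2% 2-fold lower in both genotypes. The highest was PIP2E at 2.11 in AhNF-YC-OE and 2.31 in wild type, and the lowest were AT2G34390 at −1.81 in AhNF-YC-OE and PIP2B at −1.89 in wild type. These comparisons use the same 3 arrays as those above, so they are no further evidence for a change.

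Genes with several spots show how far a value depends on the spot. PIP1E, a PIP1 of leaves, had 3. Under normal growth they gave 21527, 2347 and 256 in AhNF-YC-OE, against 24194, 3503 and 292 in wild type. Their log2 change under water stress was 0.09, −3.12 and −0.70 in AhNF-YC-OE and 0.13, −2.80 and −1.91 in wild type. The brightest spot, which stands for the gene above, thus showed almost no change. The second spot, named for another transcript of the gene, was far lower under water stress, at 75.6 in AhNF-YC-OE and 363 in wild type.

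The 3 spots of BETA-TIP changed by 0.26, 1.19 and 0.75 in AhNF-YC-OE and by 0.39, 1.09 and 0.79 in wild type, all in 1 direction. The third of them carries an older code of a neighbouring gene. In the genotype ratios the spots of PIP1E, brightest first, gave −0.13, −0.10 and 0.20 under normal growth, −0.17, −0.42 and 1.403 under water stress and −0.14, −0.36 and 0.92 in recovery. The dimmest of them was thus past 2-fold under water stress, where it gave 64 in AhNF-YC-OE and 87.9 in wild type, close to the median empty spot of 57.5 and 70.7. The spots of BETA-TIP ranged from −0.22 to −0.03 under normal growth, from −0.31 to −0.08 under water stress and from −0.42 to −0.03 in recovery.

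**Figure D5:**
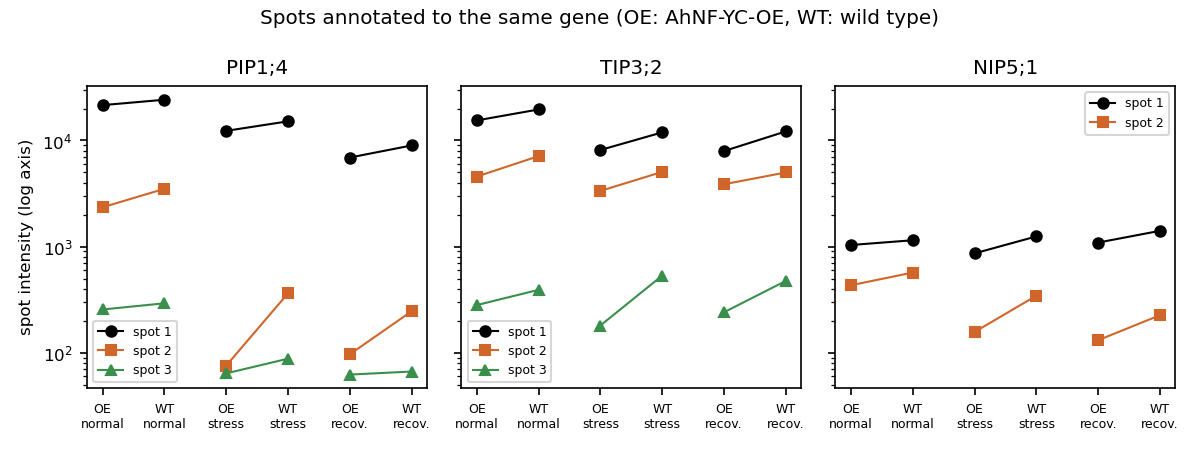
Spot intensity (vertical log axis) in the 6 channels for the 3 genes with several spots, 1 line per spot joining AhNF-YC-OE and wild type of an array, under normal growth, water stress and recovery. The spots of PIP1;4 differ under normal growth from 256 to 21527 in AhNF-YC-OE, and its second spot drops to 75.6 under water stress, while the first stays at 12318.

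A list of 16 genes known to act on aquaporins (kinases, ubiquitin ligases, trafficking proteins and regulators) was read the same way. None was 2-fold apart between the genotypes on any array. Of all loci 0.0961% were higher and 0.00769% lower under normal growth, 0.488% and 0.338% under water stress, and 0.0538% and 0.385% in recovery. So few loci passed that a list of 16 with none is near the background. The median log2 ratio of the list was 0.09, −0.10 and −0.07, beside −0.0064, 0.0030 and −2.3e-05 over all loci. The largest ratio was −0.73 under water stress for XND1, a NAC factor that lowers root water uptake. Next came −0.54 in recovery for RMA1, a membrane-anchored ubiquitin ligase, and −0.49 under water stress for OST1, the kinase that phosphorylates PIP2A. XND1 gave 85.0 in AhNF-YC-OE and 487 in wild type under water stress, and OST1 83.5 and 413. Neither exceeded the 95% limit of the empty spots in the AhNF-YC-OE channel, so these 2 ratios have as little weight as those of dim aquaporins. RMA1 gave 1980 in AhNF-YC-OE and 3862 in wild type in recovery, above that limit in both channels. Under water stress over normal growth 2 of the 16 were 2-fold lower and none higher in AhNF-YC-OE, and 2 were lower and 1 higher in wild type. Of all loci 13.1% were lower and 13% higher in AhNF-YC-OE, and 15% lower and 15.7% higher in wild type, so the counts of lower genes are near the background. RMA1 changed by −1.58 in AhNF-YC-OE and −1.01 in wild type. GRF4, a 14-3-3 protein, changed by −0.99 and −1.25, and CPK7, a calcium-dependent kinase, by −1.28 and −0.90. In recovery over water stress 1 was higher and none lower in each genotype, where 3.14% of all loci were higher and 3.7% lower in AhNF-YC-OE, and 3.98% and 4.08% in wild type.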

How the data were processed

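The deposited scanner files hold the mean intensity of each spot and its local background in both channels, per the file headers. The authors also deposited normalized intensity values and the log2 of their ratio, AhNF-YC-OE over wild type. Not given in the sources used here is how they normalized them. Their values were looked up by transcript code. Where several spots share a transcript, a value may not be that of the brightest spot. Per the file headers, each spot has 2 locus codes, from TAIR release 7 and from TIGR release 5, and names and accessions were looked up in RefSeq's table of TAIR10.1, which lists all 35 genes.

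Each array has 30000 spots in 48 blocks. Background was corrected with normexp (offset 50) and ratios with loess within each array (limma 3.58.1, R 4.3.3), with weight 0 for controls and empty spots, which was tested on simulated data. The files give no probe identifier, so each spot counted as a probe, where averaging spots of a probe had been planned, and the brightest spot stood for a locus. The ratio of a locus was counted when either channel exceeded its local background by 2 SD. A change between conditions was counted when the channel of that genotype did so on either array. Both were called at a log2 value of 1 in size (2-fold). Changes between arrays used Aquantile single-channel values. Tables used Python 3.11.15 and pandas 2.3.3. The number of arrays limits the precision, and no p-value was computed.

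Members and lists were chosen with earlier results of these data known. All members are named. Intensities in every channel are given for members past 2-fold in a genotype ratio, for the highest and lowest ratio of each array and for the highest and lowest change of each subfamily. At most 3 partners with the largest ratio and 3 with the largest change of 1 sign are named. NLM2, NLM5, GAMMA-TIP2 and the genes with several spots were added after their values were seen. Alternatives were other background corrections and scalings, the mean of spots, brightness limits and 2 limits on the annotation. No deposited table gave columns of unmapped samples, and the table of the whole series was not used.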

Additional observations from a re-analysis of the deposited data

How the results depend on the processing

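Alternatives that limit or average spots leave the value of most members as it was, which holds for 225 of the values of single members past 2-fold and says nothing of stability. Of the other 250, 191 stayed past 2-fold in the same direction, 42 kept the direction under 2-fold and 17 changed sign, and the cause was not tested. Between genotypes under normal growth, the count of members past 2-fold was 1 with print-tip loess and 0 with the authors' values. Of all loci 13 were higher and 2 lower of 26009 with print-tip loess, and 14 and 11 of 25959 with the authors' values. The family median was −0.10 over 11 members brighter than 95% of empty spots and −0.090 over 12 above the median intensity. Median centring gave 4 members past 2-fold under water stress (2 higher and 2 lower) with a median of −0.13, and 1 in recovery. Under it 1989 of all 26011 loci were higher and 3561 lower under water stress. In recovery 169 of 26006 loci were higher and 383 lower. For water stress over normal growth, median scaling gave 17 members in AhNF-YC-OE, with medians of 0.75 in AhNF-YC-OE and 0.75 in wild type, and the authors' values gave medians of −0.81 and −0.88. The authors' values turned PIP2A to −0.066 and −0.084, AT2G25810 to −0.44 and −0.31, and AT4G10380 to −0.16 and −0.36 in AhNF-YC-OE and wild type, and median scaling turned GAMMA-TIP2 to 0.57 and NLM2 to 0.19 in wild type. For recovery over water stress, 5 members in AhNF-YC-OE were past 2-fold under median scaling, where 882 of 26005 loci were higher and 1816 lower. The authors' values gave 5 in AhNF-YC-OE and 4 in wild type, with family medians of −0.44 and −0.28. Of 25910 loci they put 522 higher and 2705 lower in AhNF-YC-OE, and 541 and 2946 in wild type. They turned PIP1E from −0.53 to 2.88 in AhNF-YC-OE and from −0.57 to 3.56 in wild type. The authors' values are given per transcript, and several spots of PIP1E share 1 transcript code. Their value may thus not be that of its brightest spot, and the part of spot and scaling in this turn was not tested. For recovery over normal growth, medians were 0.52 and 0.71 under median scaling and −0.84 and −0.93 with the authors' values, which turned PIP1B to −0.50 and −0.56, PIP2F to −0.38 and −0.24, and AT4G10380 to −0.67 and −0.64. Without spots whose accession is of another locus, an alternative chosen after seeing the data, AT4G10380 turned to −0.43 in wild type under water stress over normal growth and to −0.48 and −0.59 in recovery over normal growth. Its counterpart that kept spots whose codes name 1 locus was added in the same way. No paired analysis was possible because each condition had 1 array. Dim genes are limited by background, since 6 members under water stress were not brighter than 95% of empty spots. Under normal growth only 11 members were brighter, and PIP2E, SIP2, PIP2B, GAMMA-TIP and AT5G37810 were not among them.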
